A study of Mus musculus with 32 samples.

Results

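The trophoblast regulators described here are 9 transcription factor genes, of 24028 gene symbols with an RNA value in mouse embryonic stem cells (mESCs). They are the 5 AP-2 genes (Tfap2a, Tfap2b, Tfap2c, Tfap2d and Tfap2e), the ETS genes Elf5, Ets2 and Elf3, and the ARID gene Arid3a. The members were looked up by symbol, and they were chosen by a rule made with the FPKM values of these libraries in view, so their differences between the libraries are given as a description. The study asked how Polycomb bears on DNA methylation valleys (DMVs), long stretches of unmethylated DNA around developmental genes, and compared WT cells with cells deficient in Eed, which encodes a subunit of Polycomb repressive complex 2. RNA was measured in 1 library of WT mESCs and 1 library labelled Eed-/-, both from mESCs of the line that the labels call TT2, grown in serum and LIF on gelatin. For the Eed-/- samples of other assays the labels name another line, and the mutation in the Eed-/- cells is not given in the sources used here. With 1 library per genotype there is no replicate spread, and the genotype, the culture and the line cannot be told apart as sources of a difference.

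The trophoblast is the outer layer of the blastocyst that goes on to form the fetal part of the placenta, and trophoblast stem cells are its cultured form. AP-2 proteins bind DNA as dimers at GC-rich palindromes, and AP-2 gamma, the product of Tfap2c, is needed for trophoblast growth and is also used by primordial germ cells. ELF5 stabilises the trophoblast stem cell state and its gene is known to be methylated and silent in ES cells, while ETS2 acts downstream of FGF signals in trophoblast and ARID3A takes part in trophoblast specification.

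RNA levels were deposited as FPKM, fragment numbers divided by transcript length and by the fragments mapped in the library. The steps between low FPKM values gave a depth of about 7230000 fragments for WT and 6450000 for the library labelled Eed-/-. Eed itself had an FPKM of 63.0 (WT) and 70.9 (the other library), so its transcript was not lower in the library labelled Eed-/-. An RNA level says nothing of EED protein, whose loss the study checked by probing H3K27me3, the mark made by Polycomb repressive complex 2, in assays not analysed here. Changes are differences in log2(quantile-normalized FPKM + 1), library labelled Eed-/- minus WT, on which changes of genes near 0 come out smaller than their ratios. They are given for genes whose normalized FPKM averaged 0.1 or more, which 6 of the 9 members reached, and a change of at least 1 in size is called 2-fold. Of 14835 genes past this filter, 3.8% were 2-fold higher in the library labelled Eed-/- (564 genes) and 3.98% were 2-fold lower (590 genes). With the FPKM as deposited, 455 genes were higher and 801 lower, and the median change of all genes was -0.09. Among the members, 1 gene was 2-fold lower and 0 were 2-fold higher, and since these libraries were in view when the members were chosen, nothing is read from that count. The median change of the 6 members was 0.20, beside 0.01 for all genes past the filter. It depended on the filter, at -0.09 with a minimum mean of 1 and 0 without a filter, and nothing is read from it either.

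**Figure D1:**
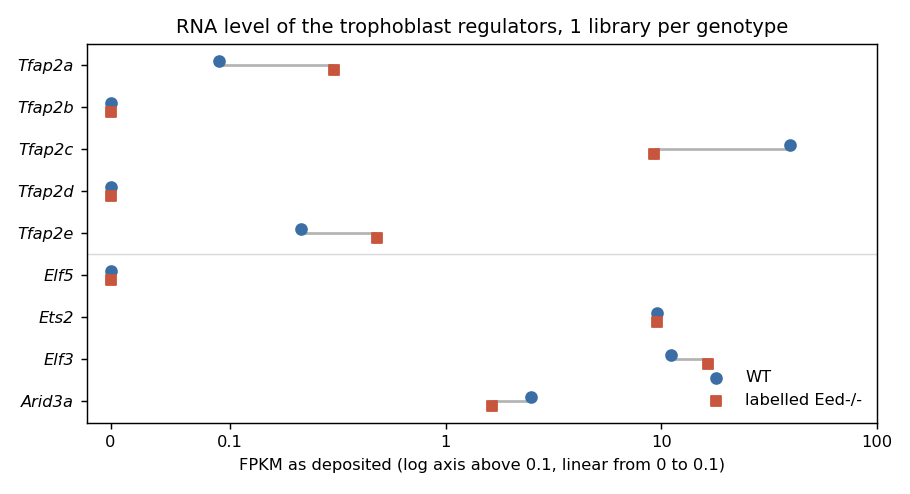
Deposited FPKM of the 9 members (x axis, logarithmic above 0.1 and linear from 0 to 0.1) in WT (blue circles) and the library labelled Eed-/- (red squares), 1 library each, with a grey line joining the values of a gene. Tfap2c lies at 39.8 in WT and 9.21 in the other library, and Tfap2b, Tfap2d and Elf5 lie at 0 in both.

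Tfap2c was the AP-2 gene with appreciable RNA, and it was the member that was 2-fold lower. Its deposited FPKM was 39.8 in WT, against 9.21 in the library labelled Eed-/-, and after quantile normalization the values were 37.4 and 9.69. The WT library thus held the high level and the other library the low level. The change was -1.85, the 81st lowest among the 14835 genes past the filter. In the WT library Tfap2c ranked 1691st of all symbols by FPKM, and in the library labelled Eed-/- it ranked 4995th. The FPKM as deposited was 4.32 times higher in WT. On the longest coding transcript, of 2985 bp, these values stand for about 806 and 167 fragments, which give a 95% interval of 3.64 to 5.12 for that ratio (exact Clopper-Pearson interval, counting error only). The interval is on the deposited FPKM, and after quantile normalization the ratio was 3.86. The difference between these 2 libraries thus exceeded counting error, but how far cultures of 1 genotype vary was not measured. The members were chosen with these values in view, so this rank and the members' intervals only describe the 2 libraries. In bulk RNA, fewer cells that hold a transcript and less of it per cell cannot be told apart.

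Tfap2c (annotated as Tcfap2c, ENSMUSG00000028640.5) lies on the plus strand of chromosome 2 of mm9 (NCBIM37) from 172375093 to 172384122, and no annotated gene overlaps it. No near-identical copy of its transcript, or of any other member's, was found elsewhere in the genome. The 3 nearest genes past the filter on each side were looked up to see whether the difference extended along the chromosome. Their changes lay between -0.31 and 0.09, with a median of -0.15. Bmp7, which encodes a BMP ligand, starts 391 kb away and had FPKM values of 0.912 and 0.932. Rae1, an mRNA export factor 451 kb away, had 69.4 and 48.8. Cass4, Fam209 and Bmp7 were under an FPKM of 1 in WT (0.281, 0.582 and 0.912). On this scale no fall of theirs could come out 2-fold. The neighbours with the most RNA, Rae1 and Rbm38, had changes of -0.27 and -0.31. All 6 changes were smaller than that of Tfap2c, but few of these genes had enough RNA to show a like fall. Over the 1124 genes of chromosome 2 past the filter the median change was 0.07.

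**Figure D2:**
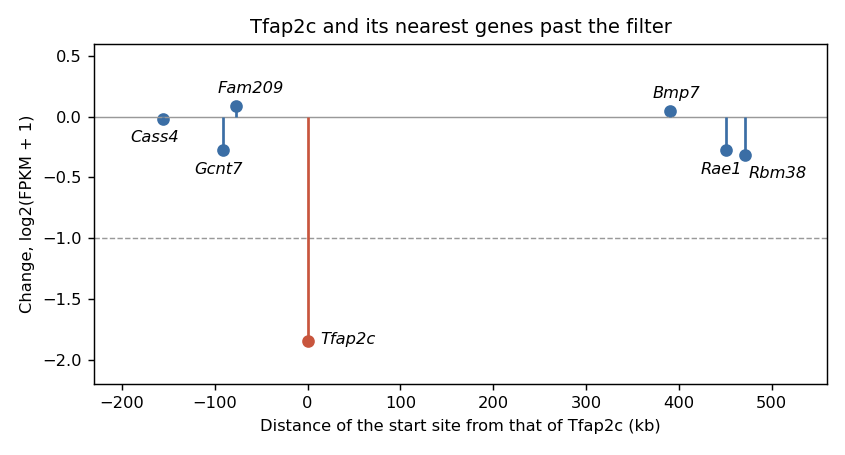
Change in log2(normalized FPKM + 1), library labelled Eed-/- minus WT (y axis), of Tfap2c (red) and of the 3 nearest genes past the filter on each side (blue), against the distance of their start sites from that of Tfap2c in kb (x axis). Tfap2c lies at -1.85, below the dashed line at -1, and its neighbours lie between -0.31 and 0.09.

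The other AP-2 genes were low or listed at 0 in both libraries. Tfap2a, which encodes AP-2 alpha, a regulator of neural crest and surface ectoderm, was at an FPKM of 0.0906 in WT, against 0.304 in the library labelled Eed-/-. These values stand for about 1.90 and 5.71 fragments on its longest coding transcript of 3089 bp. The ratio of the deposited values was 3.36, with a counting interval of 0.601 to 34.1, so a difference was not detectable at this depth. Tfap2e, which encodes AP-2 epsilon, known from olfactory neurons, had FPKM values of 0.214 and 0.480. On its single annotated transcript, 2085 bp long, these values stand for 2.95 and 5.89 fragments. Their ratio was 2.24, with a counting interval of 0.479 to 13.9. Both genes were thus higher in the library labelled Eed-/- by an amount within counting error, with changes of 0.25 for Tfap2a and 0.29 for Tfap2e. Tfap2a lies on chromosome 13 of mm9 from 40811044 to 40829192 and Tfap2e on chromosome 4 from 126393250 to 126413484, both on the minus strand.

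Tfap2b, which encodes AP-2 beta, a factor of neural crest, kidney and limb, was listed at 0 in both libraries, as was Tfap2d, which encodes AP-2 delta, known from the midbrain and retina. A listed 0 need not mean absent RNA, as the housekeeping gene Ppia was also listed at 0 in WT and at 0.278 in the other library. Why Ppia was so low was not tested. If the 0 stands for no fragment, up to 3 fragments could have been missed by chance, which for the longest coding transcript of Tfap2b is an FPKM of 0.0706 for WT and 0.0792 for the other library. For Tfap2d the limits were 0.263 and 0.294. The 2 genes lie side by side on chromosome 1, Tfap2d from 19093103 to 19156427 and Tfap2b from 19198995 to 19228815, both on the plus strand.

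Summed over the 5 AP-2 genes, the deposited FPKM was 40.1 in WT against 9.995 in the library labelled Eed-/-, 4.01 times higher in WT. FPKM is scaled to transcript length, so levels of these genes can be set side by side. Tfap2c made up 99.2% of the sum in WT and 92.2% in the other library. Tfap2e made up 0.534% and 4.80%, and Tfap2a 0.226% and 3.04%. The AP-2 RNA of both libraries was therefore almost wholly that of Tfap2c, and the larger share of the other genes in the library labelled Eed-/- rests on about 6 fragments each.

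Tfap2a, Tfap2b and Tfap2c are among the genes that the study assigned to DMVs in mESCs, under the older symbols Tcfap2a, Tcfap2b and Tcfap2c, and the other members are not. Eed is assigned too. The share of all genes so assigned is not given here, and nothing is read from the number of members. Among Tfap2a, Tfap2b and Tfap2c the RNA levels spanned the whole range of the members, from 0 for Tfap2b to 39.8 for Tfap2c in WT. The promoters of 7 of the 9 members were matched by symbol in a RefSeq table of GRCm38.p6, which gives 11 start sites for them. Tfap2c and Arid3a were not matched. Since the study is about unmethylated DNA, the 250 bases before each start were described by their CpG sites, where mammalian DNA is methylated. The median promoter of 32851 in the table had 6 CpG sites and an observed over expected CpG ratio of 0.374. Of the members, Ets2 had the most CpG sites (25, ratio 0.796), followed by Tfap2e (15, ratio 0.723) and by both starts of Tfap2a (10 each, ratios 0.729 and 0.563). The upstream start of Elf5 had the fewest (2, ratio 0.0814), and 12.3% of all promoters had a lower ratio, while its other start had 8 (ratio 0.402), as many as Elf3 (8, ratio 0.392). Tfap2b had 5 CpG sites (ratio 0.391) and the 3 starts of Tfap2d had 4 to 7. The 9-base AP-2 palindrome GCCNNNGGC, which reads alike on both strands, was in none of the 11 windows and in 13.7% of all promoters. The ETS core GGAA, searched on both strands, was present 1 to 4 times in each window and at least once in 93.4% of all promoters.

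**Figure D3:**
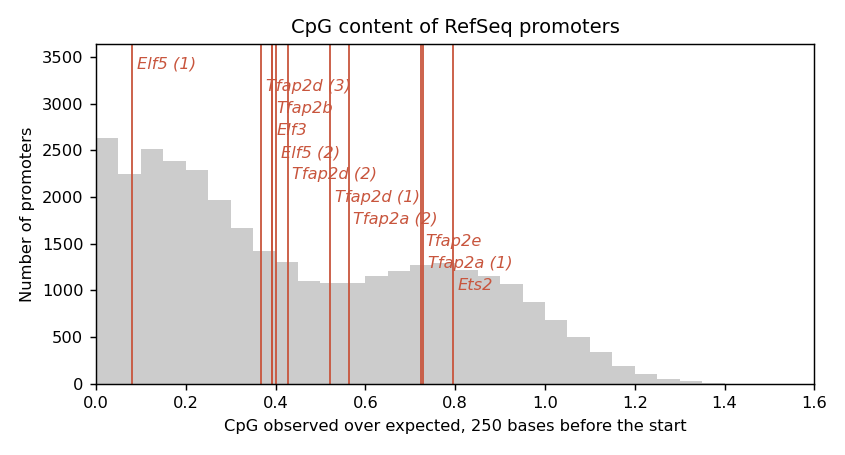
Observed over expected CpG ratio in the 250 bases before the start (x axis) against the number of RefSeq promoters (grey bars), with a red line for each start site of a member and the start numbered in the direction of transcription where a gene has several. Elf5 (1) lies lowest at 0.0814 and Ets2 highest at 0.796.

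Promoters of 5 members are shown, for 2 AP-2 genes with little RNA and for the 3 ETS genes, with CpG sites in capitals. Both AP-2 genes had more CpG sites than the median promoter. Of all promoters, 62.2% had fewer than Tfap2a and 72.7% had fewer than Tfap2e. Of Tfap2a and Elf5, which have 2 starts each, the upstream one is shown. Each is printed 5′ to 3′ on the strand of its gene and ends at the base before the start site. The windows, in GRCm38.p6, are chr13:40734921-40735170 on the minus strand for Tfap2a, chr4:126736270-126736519 on the minus strand for Tfap2e, chr2:103411848-103412097 on the plus strand for Elf5, chr16:95702157-95702406 on the plus strand for Ets2 and chr1:135258473-135258722 on the minus strand for Elf3.
Tfap2a: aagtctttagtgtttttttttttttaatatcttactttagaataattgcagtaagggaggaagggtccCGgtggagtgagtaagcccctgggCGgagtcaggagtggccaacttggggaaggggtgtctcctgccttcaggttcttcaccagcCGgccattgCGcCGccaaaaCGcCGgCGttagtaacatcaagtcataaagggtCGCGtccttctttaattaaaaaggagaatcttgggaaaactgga
Tfap2e: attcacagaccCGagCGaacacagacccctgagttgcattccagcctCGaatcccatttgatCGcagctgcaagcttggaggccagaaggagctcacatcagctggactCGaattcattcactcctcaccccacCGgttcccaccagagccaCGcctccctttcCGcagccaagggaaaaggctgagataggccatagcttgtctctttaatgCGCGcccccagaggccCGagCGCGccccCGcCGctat
Elf5: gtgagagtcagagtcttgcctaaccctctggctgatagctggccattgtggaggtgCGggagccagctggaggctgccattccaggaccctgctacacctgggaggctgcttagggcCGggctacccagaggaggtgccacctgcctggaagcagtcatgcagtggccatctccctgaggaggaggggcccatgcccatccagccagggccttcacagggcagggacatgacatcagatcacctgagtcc
Ets2: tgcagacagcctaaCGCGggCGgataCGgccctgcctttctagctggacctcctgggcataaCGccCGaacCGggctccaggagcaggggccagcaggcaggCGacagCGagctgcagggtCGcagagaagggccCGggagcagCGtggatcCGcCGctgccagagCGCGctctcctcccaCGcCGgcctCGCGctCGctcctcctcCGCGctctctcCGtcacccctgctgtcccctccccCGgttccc
Elf3: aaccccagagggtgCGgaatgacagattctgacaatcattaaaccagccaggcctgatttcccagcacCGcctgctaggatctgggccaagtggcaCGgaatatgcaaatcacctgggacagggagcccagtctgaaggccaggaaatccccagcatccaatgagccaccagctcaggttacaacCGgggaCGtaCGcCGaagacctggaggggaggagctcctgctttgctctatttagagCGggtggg

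Of the ETS members, Elf5 was listed at 0 in both libraries, and Ets2 and Elf3 were well above background. Elf5 (chromosome 2, 103251845 to 103291146, plus strand) has a limit of 3 fragments at FPKM values of 0.176 for WT and 0.198 for the library labelled Eed-/- on its longest coding transcript. Its 4 coding transcripts are 658 to 2532 bp long, and on the shorter ones the limit would be higher. Its RNA was thus not detected in either library, within these limits. Ets2 (chromosome 16, 95923682 to 95942658, plus strand) had FPKM values of 9.51 in WT and 9.59 in the other library. The ratio of 1.01 had a counting interval of 0.842 to 1.21, and the change was 0.14. Its values lay side by side, with no difference beyond counting error on the longest coding transcript of 3890 bp.

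Elf3 (chromosome 1, 137150151 to 137155049, minus strand), an epithelial ETS factor, was the member with the highest FPKM in the library labelled Eed-/-. Its FPKM was 11.04 in WT against 16.5 in the library labelled Eed-/-, which stand for 145 and 194 fragments on its 1 annotated transcript of 2000 bp. The ratio was 1.50, with a counting interval of 1.203 to 1.87, and the change of 0.69 was under 2-fold. The library labelled Eed-/- thus held the higher level, by more than counting error. The 789 genes of chromosome 1 past the filter had a median change of -0.29, and the 6 neighbours of Elf3 had changes of -0.63 to 0.29. A lincRNA gene, Gm16606, overlaps Elf3 on the opposite strand, and whether strand was used when fragments were assigned is not given in the sources used here. The same holds for Tfap2a, which Gm16989 overlaps on the opposite strand, and for Tfap2d, which Gm10075 and Gm15825 overlap on the opposite strand.

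Arid3a (chromosome 10, 79389788 to 79417763, plus strand), the AT-rich interaction domain gene among the members, had FPKM values of 2.48 in WT against 1.65 in the library labelled Eed-/-. The ratio of the deposited values was 0.664, with a counting interval of 0.466 to 0.935 if the fragments, about 92.8 and 55.0, are those of its longest coding transcript of 5361 bp. Its shortest coding transcript of 691 bp would give 9.15 and 5.42 fragments and a wider interval. These intervals are on the deposited FPKM, where the median change of all genes was -0.09, and after quantile normalization the ratio was 0.711. The change was -0.33, under 2-fold. The WT library held the higher level, but whether by more than counting error depends on the scaling and is not settled.

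By deposited FPKM the order of the members in WT was Tfap2c, Elf3, Ets2, Arid3a, Tfap2e and Tfap2a, followed by the 3 genes listed at 0. In the library labelled Eed-/- it was Elf3, Ets2, Tfap2c, Arid3a, Tfap2e and Tfap2a. Tfap2c thus stood below Elf3 and Ets2 in the library labelled Eed-/- and above both in WT, and the members kept their order otherwise. The values of Ets2 and Tfap2c in the library labelled Eed-/-, 9.59 and 9.21, were close, and without replicates their order is not settled.

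**Figure D4:**
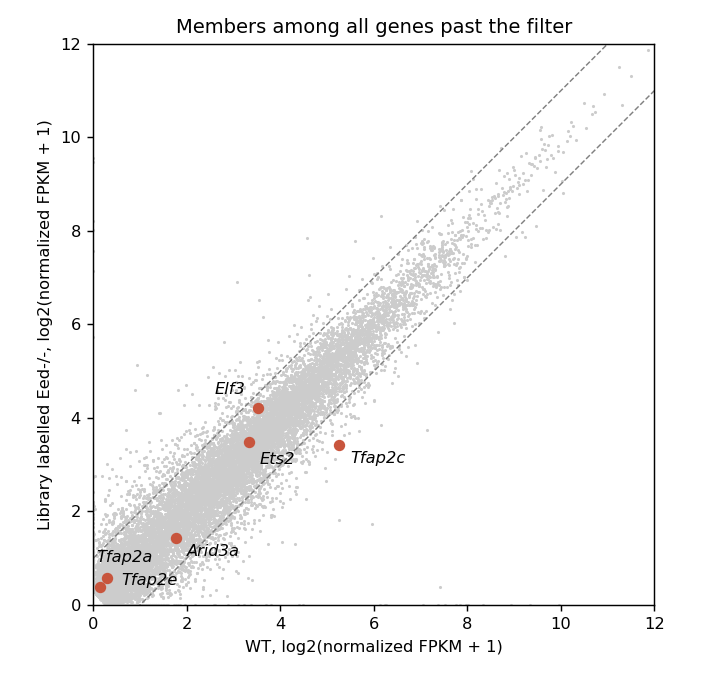
Log2(normalized FPKM + 1) in WT (x axis) and in the library labelled Eed-/- (y axis) for genes past the filter (grey, 44 genes at 12 or above not drawn) and the 6 members among them (red), with dashed lines at a 2-fold difference. Tfap2c lies below the lower line, and the other 5 members lie between the lines.

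Related genes were read from 10 lists of the pathway and of the cell types in question. These lists were chosen with earlier results of these data known. Their counts of changed genes and median changes are therefore a description, and nothing is read from them. Among 7 genes of AP-2 cofactors, 1 was 2-fold lower and 1 was 2-fold higher. The lower gene was Kctd15, whose product binds AP-2 and inhibits its activity, with an FPKM of 15.7 in WT, 3.54 in the other library and a change of -1.77. The higher gene was Cited1, a transcriptional coactivator, with values of 2.54 and 6.10 and a change of 1.11. Cited1 lies on chromosome X, whose 534 genes past the filter had a median change of 0.46, and less this median its change was 0.65. The coactivator gene Cited2 (3.86 and 3.64) had a change of 0.02.

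Of 20 other ETS and ARID3 genes, 18 passed the filter, 1 was 2-fold lower and 0 were 2-fold higher, with a median change of 0.01. The lower gene was Etv4, a PEA3 factor that responds to FGF signals, with FPKM values of 53.7 in WT against 14.2 in the library labelled Eed-/-. Its close relative Etv5 had values of 32.0 and 43.4, in the opposite order. Ehf, an epithelial ETS gene next to Elf5, was listed at 0 in WT against 0.553 in the library labelled Eed-/-. Arid3b, the paralogue of Arid3a, had values of 6.60 and 5.71.

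Of 15 genes of the trophoblast stem cell network, 14 passed the filter, 2 were 2-fold higher and 0 were 2-fold lower, with a median change of 0.21. The 2 higher genes were Eomes, a T-box factor of trophoblast and mesendoderm, with FPKM values of 0.478 and 1.93, and Sox21, with 0.612 and 2.36. Cdx2, which specifies trophectoderm, had values of 0.562 in WT against 0.0788 in the library labelled Eed-/-, a change of -0.53. Gata3 had 0.365 and 0.664. A gene under a normalized FPKM of 1 in WT can be called 2-fold higher on this scale but not 2-fold lower. This held for Cdx2, Eomes, Gata2, Gata3, Sox21 and Ppp2r3a, so the split of 2 and 0 is not read as a direction of the list. Cdx2, Eomes, Gata2 and Gata3 were thus under an FPKM of 2 in both libraries, unlike Tfap2c. Esrrb (52.6 and 49.2) and Sox2 (196 and 157), which are also pluripotency genes, had the highest levels of the list.

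Of 15 genes of differentiated trophoblast, 10 passed the filter, with a median change of -0.19. Tpbpa, Prl3d1, Prl2c2 and Ctsq, which mark spongiotrophoblast and giant cells, were listed at 0 in both libraries. The 1 gene that was 2-fold lower was Phlda2, an imprinted gene that restrains placental growth, with FPKM values of 112 in WT against 36.6 in the library labelled Eed-/-. Hand1, a giant cell factor, was given as 0 in WT against 0.541 in the other library, a change of 0.63. Ly6e (19.5 and 10.3) and Ascl2 (2.41 and 1.30) had changes of -0.71 and -0.52. Tpbpa, Prl3d1, Prl2c2 and Ctsq were thus not detected. They were not searched for near-identical copies, and a listed 0 need not mean absent RNA. The summed FPKM of the list, 162 in WT, was mostly that of Phlda2 and Peg10, which ES cells also express.

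Among 12 genes of simple epithelium, which the trophectoderm is, 9 had changes below 0, 3 were 2-fold lower and 0 were 2-fold higher, with a median change of -0.61. The 3 lower genes were Cdh1 (E-cadherin), with FPKM values of 62.0 and 24.3, Krt18 (a simple epithelial keratin), with 12.1 and 4.69, and Ovol2, an epithelial zinc finger factor, with 4.13 and 0.150. Cdh1 lies on chromosome 8, where the median change of 748 genes was -0.39, and less this median its change was -0.72, under 2-fold. Grhl2, another epithelial factor, had values of 3.40 and 3.19. Besides Grhl2, the genes with changes above 0 were Dsp (1.25 and 2.60, a change of 0.72) and Epcam (a change of 0.09). Over all genes past the filter, 3.98% were 2-fold lower. Since the list was chosen with earlier results of these data known, nothing is read from its counts or its median. Tfap2c was 2-fold lower in the library labelled Eed-/-, while Elf3, under 2-fold, was higher there. Whether these differences are linked was not tested.

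In germ cell precursors AP-2 gamma acts beside PRDM1 and PRDM14, and the 8 genes of that programme moved in both directions. Nanos3, an RNA-binding factor of primordial germ cells, had FPKM values of 7.21 and 1.97, Dppa3 (38.4 and 15.5) and Ddx4 (9.07 and 3.08) were also 2-fold lower, and Prdm14 (6.36 and 18.5) and Dazl (0.709 and 4.08) were 2-fold higher. Nanos3 lies on chromosome 8, and its change of -1.37 less the median of that chromosome was -0.98, under 2-fold. Prdm1 had values of 1.81 and 0.812. Of 11 genes of neural crest and surface ectoderm, where Tfap2a and Tfap2b act, 8 passed the filter, and Foxd3 (5.67 and 13.6), which ES cells also express, was the 1 that was 2-fold higher. Trp63, which defines stratified epithelium, was listed at 0 in both libraries.

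**Figure D5:**
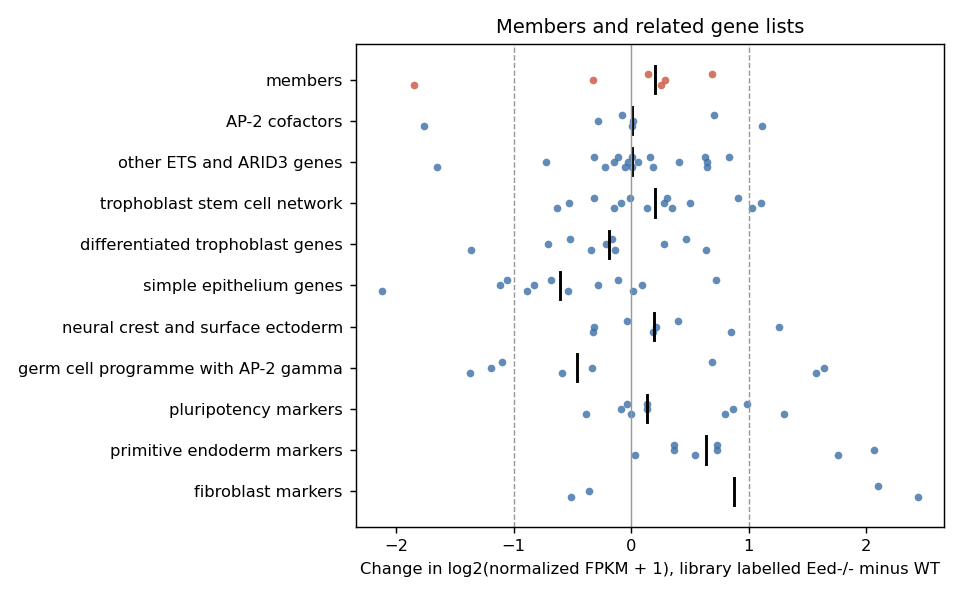
Change in log2(normalized FPKM + 1), library labelled Eed-/- minus WT (x axis), of each gene past the filter in the members (red) and in the related lists (blue), with the median of each list as a black bar and dashed lines at a 2-fold change. The members' median is 0.20, that of simple epithelium -0.61 and that of primitive endoderm 0.63.

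The labelled cell type was checked against its markers. All 10 pluripotency markers were above an FPKM of 2 in both libraries, with a median change of 0.14, and 1 was 2-fold higher and 0 were 2-fold lower. Pou5f1 had 393 (WT) and 373 (labelled Eed-/-). The higher gene was Zfp42 (131 and 272, chromosome 8), and Klf4 (25.5 and 44.4) and Nanog (114 and 176) had changes of 0.99 and 0.86. All 8 primitive endoderm markers had changes above 0, with a median of 0.63 and a summed FPKM of 15.5 (WT) and 57.2 (labelled Eed-/-). Most of both sums was that of the basement membrane genes Lama1 (8.25 and 33.5) and Col4a1 (5.62 and 19.1), the 2 that were 2-fold higher. The other 6, the endoderm factors Gata4, Gata6, Sox7 and Sox17 among them, stayed below 2 FPKM in either library, and Sox17 was listed at 0 in WT. Of 9 fibroblast markers, 4 passed the filter. Vim (24.9 and 118) and Thy1 (0.976 and 6.97) were 2-fold higher, and Fn1 (55.9 and 33.5) and Col1a1 (0.460 and 0.137) had changes of -0.52 and -0.36. The summed FPKM of 82.5 and 159 was mostly that of Fn1 and Vim, Dcn was listed at 0 in both libraries, and the defining collagen genes Col1a1, Col1a2 and Col3a1 were under 0.5 in both libraries. These marker lists too were chosen with earlier results known, so nothing is read from the direction or median of their changes. The part of these markers in the difference of Tfap2c was not tested.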

How the data were processed

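RNA was measured in 1 library of WT and 1 library labelled Eed-/- mESCs. Per the labels, rRNA-depleted total RNA was made into strand-specific libraries. The submitters' processing notes name TopHat2 2.0.11 and Cufflinks 2.2.1. The authors deposited FPKM per gene symbol on mm9, and the annotation and options are not given in the sources used here.

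The 24525 values per library gave 24028 symbols after 268 symbols listed more than once were summed. Values were quantile-normalized and changes computed as log2(FPKM + 1) for genes with a mean of at least 0.1, with a threshold of 2-fold and no test. Low FPKM steps of 5329 genes with 1 transcript gave the depth (80.3% and 80.8% of low values within 0.1 of a whole fragment). The step was tested on simulated data. Intervals cover counting error only. Positions came from GENCODE vM1 (21745 symbols matched), with AP-2 genes matched through RefSeq synonyms, and promoters from RefSeq GRCm38.p6. Copies were searched with minimap2 2.31, at 80% coverage and 95% identity. Scripts ran under Python 3.11.15 with pandas 2.3.3, numpy 2.4.6 and scipy 1.17.1, and plots were drawn with matplotlib 3.10.9.

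The members and the 10 lists were chosen with earlier results of these data known. Named genes were all members and, of each list, those past 2-fold or with the largest changes. Other list genes with a defining role, or set beside a named gene, such as Pou5f1 and Sox17, and the neighbours of Tfap2c were named after their values were seen. A gene that this rule would allow is not reported here.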

Additional observations from a re-analysis of the deposited data

How the results depend on the processing

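Tfap2c was past 2-fold in each of the 8 alternatives, with changes of -1.997 to -1.84, and the WT level of the summed AP-2 FPKM was 3.58 to 4.01 times that of the library labelled Eed-/- under the 3 scalings. No member changed direction. With a pseudocount of 0.1, 1694 genes were higher and 1778 lower, 2 members were past 2-fold and the members' median change was 0.45. With 0.01 these were 1914, 1989, 3 and 0.45. The member added at 0.1 was Tfap2a and at 0.01 also Tfap2e, each with about 6 fragments or fewer per library. The members' median was 0 without a filter and -0.0924 with a minimum mean of 1. A 3-fold threshold left 152 genes higher and 137 lower. Leaving out the members of chromosome 1, an alternative chosen after seeing the data, gave a median of 0.14. No paired analysis was possible because each genotype had 1 RNA-seq library.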
